A study of Homo sapiens with 6 samples.

Results

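The alpha and beta tubulin isotypes described here are 10 human genes, 4 that encode alpha tubulins (TUBA1A, TUBA1B, TUBA1C and TUBA4A) and 6 that encode beta tubulins (TUBB, TUBB2A, TUBB2B, TUBB3, TUBB4B and TUBB6). They were chosen by name, with earlier results of these data known. All 10 were found by symbol among the 60131 genes of the deposited RPKM table (read density scaled to transcript length and library size) and by Entrez identifier among the 28395 genes of the deposited normalized count table. RNA was sequenced from K562 cells, an established human leukaemia line with erythroid and megakaryocytic features. The design compared 3 libraries of cells with wild-type RUNX1, labelled WT, with 3 libraries of RUNX1 R320* cells. RUNX1 is a transcription factor of blood cell development, and R320* truncates it. Both genotypes were grown in the same serum-supplemented RPMI-1640 medium, and no drug or time course separates them in the labels. The labels do not say how the R320* cells were made, whether they are 1 clone, or whether the 3 libraries of a genotype came from separate cultures. P-values here therefore measure the spread between these libraries, which may be technical.

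Microtubules are hollow polymers of alpha and beta tubulin heterodimers. They form the mitotic spindle and the tracks along which motor proteins carry cargo. Each tubulin is encoded by a family of genes whose products, the isotypes, are alike over most of their length and differ mainly in an acidic C-terminal tail. The tail faces outward from the polymer and carries many of the modifications that motors and binding proteins read. Dividing cells use a few broadly expressed isotypes, whereas neurons and platelets add isotypes of their own. Cells also tune tubulin RNA to supply: when free dimers accumulate, TTC5 binds the nascent tubulin chain on the ribosome and the CCR4-NOT complex degrades the message.

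The libraries held between 29058471 and 31306435 reads assigned to genes, with 1 read worth 0.953 to 1.05 normalized counts. RUNX1 itself had 2908 to 2969 normalized counts in the WT libraries and 5026 to 5261 in the R320* libraries. The 12 markers fixed for K562 and erythroid cells were all detected, with a summed level of 127646 to 132268 normalized counts in WT and 150109 to 175451 in R320*. The 12 megakaryocyte and platelet markers, TUBB1 among them, summed to 3511 to 3713 in WT and 842 to 941 in R320*, with no read for GP1BB, PF4, SELP and TREML1. Of the 14 neuron markers, TUBB3 among them, 4 passed the filter on low values, the sum was 169 to 194 in WT and 220 to 258 in R320*, and DCX, ELAVL4, NEFL, NEFM, SNAP25 and STMN2 had no read. Fibroblast, epithelial, and lymphocyte and monocyte markers summed to 3472 to 3560, 16071 to 16263 and 2080 to 2111 in WT, and to 2720 to 2935, 17852 to 18380 and 623 to 712 in R320*. Sums can hide opposite changes. At a limma adjusted p below 0.05, 7 of 12 tested K562 and erythroid markers were higher and 2 lower. For megakaryocyte and platelet markers it was 0 and 3 of 5, and for neuron markers 2 and 1 of 4. For the last 3 lists it was 1 and 2 of 4, 2 and 2 of 5, and 0 and 3 of 4. Among all genes tested, 26.4% were higher and 27.4% lower. TUBB1 alone had means of 1664 normalized counts in WT and 292 in R320*, and TUBB3 alone 115 and 171. The megakaryocyte and neuron sums therefore include the change of a tubulin itself. The part these marker levels have in the tubulin results was not tested. In bulk RNA, fewer cells of a type and less RNA per cell cannot be told apart.

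The isotypes are distinguished by their tails, so the last 75 coding bases, stop codon included, are shown for the 6 beta genes from the GENCODE 29 annotation of GRCh38, 5′ to 3′ on the coding strand. Capitals mark bases that differ from TUBB after alignment, with bases that have no TUBB counterpart counted as differing. The stretches lie at chr6:30724323-30724397 (TUBB, plus strand), chr9:137243482-137243556 (TUBB4B, plus strand), chr6:3153863-3153937 (TUBB2A, minus strand), chr6:3224751-3224825 (TUBB2B, minus strand), chr18:12326056-12326130 (TUBB6, plus strand) and chr16:89935730-89935804 (TUBB3, plus strand), each within 1 exon.
TUBB: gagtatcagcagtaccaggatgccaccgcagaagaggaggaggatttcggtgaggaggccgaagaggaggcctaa
TUBB4B: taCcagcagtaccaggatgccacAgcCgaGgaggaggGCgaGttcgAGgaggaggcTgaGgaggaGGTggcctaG
TUBB2A: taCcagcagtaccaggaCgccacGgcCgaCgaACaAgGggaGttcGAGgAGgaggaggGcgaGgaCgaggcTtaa
TUBB2B: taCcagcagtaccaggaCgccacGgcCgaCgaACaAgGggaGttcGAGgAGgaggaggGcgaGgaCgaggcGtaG
TUBB6: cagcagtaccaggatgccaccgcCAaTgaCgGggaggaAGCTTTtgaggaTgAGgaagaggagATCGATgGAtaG
TUBB3: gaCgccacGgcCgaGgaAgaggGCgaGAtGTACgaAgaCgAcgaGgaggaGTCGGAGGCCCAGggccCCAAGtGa
TUBB4B was nearest to TUBB with 15 differing bases, and TUBB2A, TUBB2B and TUBB6 followed with 19, 20 and 23. TUBB3, the isotype used as a neuronal marker, differed at 36. These are counts of bases and do not rank the protein tails, since differences that leave the protein unchanged were not set apart. Over the whole coding sequence TUBA1A and TUBA1B were 97.2% identical, TUBA1B and TUBA1C 96.8%, and TUBB2A and TUBB2B 98.1%. TUBB6 was the most separable member: none of the windows of 100 bases along its transcript occurred in another gene. The share of such windows found elsewhere was 18.3% for TUBA1A, 37.2% for TUBA1B, 11.5% for TUBA1C, 56.4% for TUBB2A, 46.2% for TUBB2B and 89.0% for TUBB3, and lower for TUBB (5.10%), TUBB4B (2.86%) and TUBA4A (1.84%). For TUBB3 they were shared with the overlapping gene AC092143.1, which had an RPKM of 0 in 5 libraries and 0.177 in WT replicate 3. In windows of 50 bases every share was higher, with 41.1% for TUBA1A, 62.7% for TUBA1B, 25.1% for TUBA1C and 65.5% for TUBB2A. TUBB6 had 0.993% there and stayed the lowest. Where the windows are shared, the split of reads between genes rests on the authors' counting. How far this reaches the value of a gene depends also on the level of the gene it shares windows with. TUBA1A, at 6.89 RPKM in WT, shared 15.5% of its windows of 100 bases with TUBA1B, at 1616 RPKM. The effect of this sharing on the changes was not tested.

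Levels were compared between genes only in RPKM, which divides by transcript length. WT cells used 3 isotypes at high level. TUBA1B, the main alpha tubulin of dividing cells, was highest at 1616 ± 11.1 RPKM (SD, n = 3), then TUBB, the broadly expressed class I beta tubulin, at 1158 ± 9.51, then TUBA1C at 623 ± 16.1. TUBB4B, a broadly expressed beta tubulin also found in cilia, followed at 186 ± 4.75, and TUBB6, the class V beta tubulin, at 80.8 ± 5.41. TUBB2A (21.6 ± 0.754) and TUBA4A (20.1 ± 1.05) came next and overlapped each other. TUBA1A, best known from neurons, was at 6.89 ± 0.312, TUBB2B at 3.13 ± 0.234 and TUBB3 at 1.84 ± 0.471. In R320* the first places were shared, with TUBB at 1089 ± 25.1 and TUBA1B at 1087 ± 50.6, whose libraries overlapped. TUBB3 (2.69 ± 0.435) and TUBB2B (2.14 ± 0.112) also overlapped there, and the other neighbours in the order kept apart except TUBB2A and TUBA4A.

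**Figure D1:**
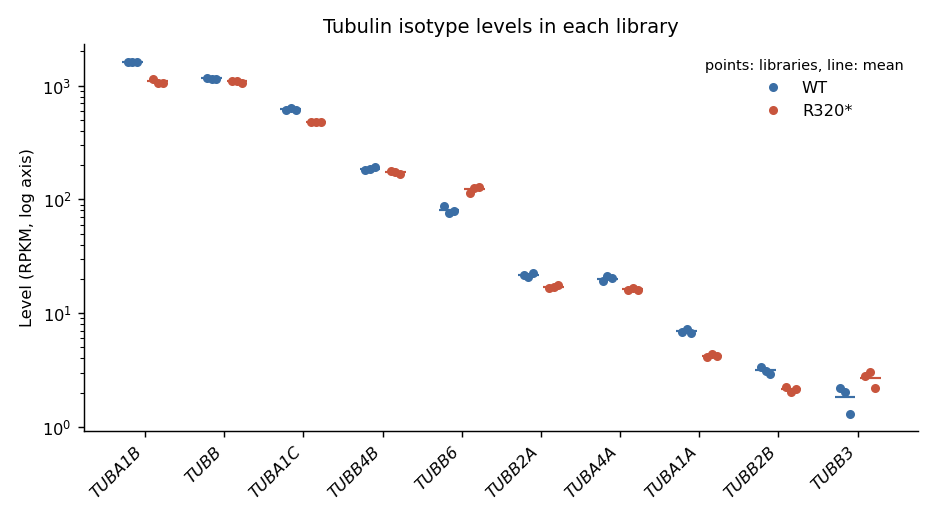
RPKM of each tubulin isotype (log axis) in the 3 WT and the 3 R320* libraries, with points for libraries and lines for means. TUBA1B stood highest in WT at 1616 RPKM, and in R320* it met TUBB at 1087 against 1089.

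The 3 alpha genes on chromosome 12 were all lower in R320*. TUBA1B had 55475, 55087 and 54368 normalized counts in the WT libraries and 39041, 36985 and 37865 in the R320* libraries. Every R320* library was below every WT library. The mean went from 54977 ± 561 to 37964 ± 1031 (SD, n = 3), a log2 fold change of -0.53 (SE 0.03, limma adjusted p = 5.49e-10). Log2 fold changes of this table subtract WT from R320* after adding 1 to each normalized count, and changes are called at an adjusted p below 0.05. TUBA1C had 17036, 17000 and 16638 in WT and 12700, 11887 and 12166 in R320*. Its groups did not overlap either, and it fell by 0.46 on the log2 scale (SE 0.03, limma adjusted p = 8.32e-09). TUBA1A had 367, 428 and 411 in WT and 243, 249 and 231 in R320*. All R320* libraries were again the lower ones, with a log2 fold change of -0.73 (SE 0.11, limma adjusted p = 3.29e-05). In RPKM the changes were -0.57 for TUBA1B, -0.38 for TUBA1C and -0.69 for TUBA1A, on the log2(RPKM + 0.1) scale, with limma adjusted p of 0.000116, 0.000255 and 0.00187.

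TUBA4A, an alpha tubulin encoded on chromosome 2, was not called in normalized counts. It had 799, 727 and 744 in WT and 703, 744 and 717 in R320*. Here the groups overlapped, and the log2 fold change was -0.07 with a 95% interval of -0.22 to 0.09 (limma adjusted p = 0.453). In RPKM it had 19.0, 21.1 and 20.2 in WT and 15.9, 16.6 and 16.1 in R320*, where the groups did not overlap (log2 fold change -0.31, limma adjusted p = 0.00947). This call was lost when the RPKM columns were rescaled to equal sums (limma adjusted p = 0.0548).

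Among the beta genes TUBB6 rose. Its WT libraries had 3778, 3862 and 3926 normalized counts and its R320* libraries 5829, 5859 and 6104. The R320* libraries were all above the WT libraries, by 1.54-fold in the mean, with a log2 fold change of 0.62 (SE 0.04, limma adjusted p = 9.90e-10). In RPKM the WT libraries had 86.8, 76.4 and 79.1 and the R320* libraries 113, 125 and 129, a 1.51-fold difference (log2 fold change 0.60, limma adjusted p = 0.000972).

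TUBB3 was higher in R320* in normalized counts at a low level. Its libraries had 128, 123 and 96.1 in WT and 156, 197 and 158 in R320*. These groups did not overlap, WT replicate 3 was the lowest, with a log2 fold change of 0.56 and an SE of 0.18 (limma adjusted p = 0.0130). The call was lost without WT replicate 3 or without R320* replicate 2. In RPKM it had 2.20, 2.01 and 1.30 in WT and 2.82, 3.04 and 2.20 in R320*, with a log2 fold change of 0.55 that was not called (limma adjusted p = 0.136). Of the 14 neuron markers, 10 were below 10 normalized counts in every library.

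TUBB4B was not called in either table. Its libraries had 8653, 8826 and 9090 normalized counts in WT and 8421, 8861 and 8985 in R320*. Here the groups overlapped, and the log2 fold change was -0.02 with a 95% interval of -0.10 to 0.06 (limma adjusted p = 0.729). In RPKM it was -0.10, from -0.19 to -0.01, with a limma adjusted p of 0.0819.

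The near-identical pair TUBB2A and TUBB2B, which lie side by side on chromosome 6, had lower means in R320*. TUBB2A had 547, 515 and 565 normalized counts in WT and 418, 462 and 511 in R320*. No R320* library reached the lowest WT library, yet the log2 fold change of -0.23 had a limma adjusted p of 0.0507 and was not called. TUBB2B had 147, 149 and 126 in WT and 125, 99.2 and 132 in R320*, where the groups overlapped (log2 fold change -0.25, from -0.62 to 0.13, limma adjusted p = 0.255). In RPKM TUBB2A had 21.4, 20.9 and 22.4 in WT and 16.5, 17.1 and 17.6 in R320*, a log2 fold change of -0.34 (limma adjusted p = 0.00475). TUBB2B had 2.91 to 3.37 in WT and 2.01 to 2.23 in R320* (log2 fold change -0.53, limma adjusted p = 0.0283), and this call was lost whenever any 1 of the 6 libraries was left out.

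Of the 9 members that passed the filter on low values in normalized counts, TUBB3 and TUBB6 were called higher and TUBA1A, TUBA1B and TUBA1C lower, which is 55.6% called. Among all 14299 genes tested 53.7% were called, 26.4% higher and 27.4% lower, so the share of tubulins called was near the background. The genotypes did not overlap for 6 of the 9 members and for 59.8% of all genes tested. The median log2 fold change was -0.23 for the 9 members and 0.01 for all genes. In RPKM all 10 passed the filter, with 1 called higher (TUBB6) and 6 called lower, where 31.9% of 17769 genes were called, 15.1% higher and 16.8% lower. With the RPKM columns rescaled to equal sums, 3412 genes were called higher and 2403 lower, against 2692 and 2983 as deposited. In RPKM the genotypes did not overlap for any of the 10 members, and for 47.0% of all genes.

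**Figure D2:**
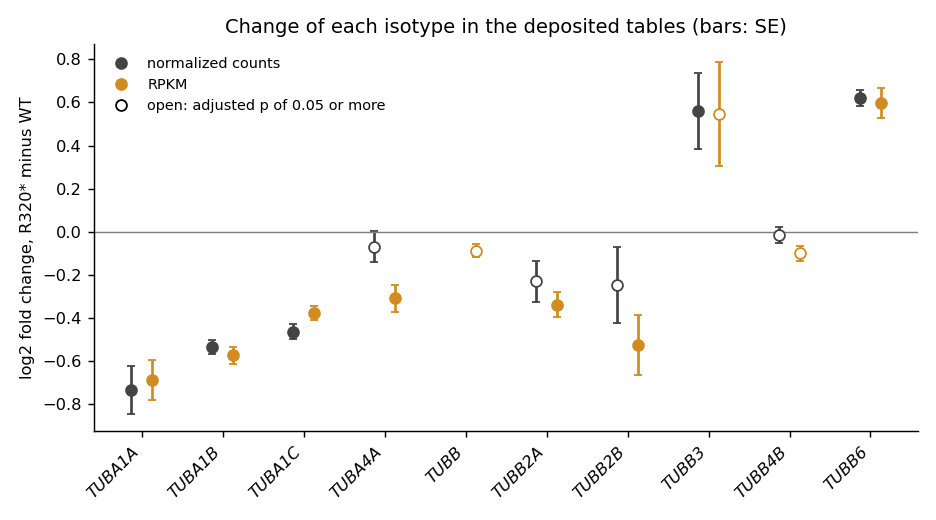
Log2 fold change (R320* minus WT) of each isotype in normalized counts and in RPKM, with SE bars and open symbols where the adjusted p was 0.05 or more. TUBA1A, TUBA1B and TUBA1C lay below 0 and TUBB6 above 0 in both tables, at -0.73, -0.53, -0.46 and 0.62 in normalized counts, and TUBB has no value there because it failed the filter.

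TUBB was measured by only 1 of the tables. The normalized counts held 1, 0 and 0 recovered reads in WT and 0, 6 and 7 in R320*, so no fold change was computed. The RPKM table gave 1169, 1152 and 1153 in WT and 1106, 1101 and 1061 in R320*. There the R320* libraries were all lower, with a log2 fold change of -0.09 and a 95% interval of -0.16 to -0.02 that was not called (limma adjusted p = 0.0655). Over the 11 alternatives the change ranged from -0.10 to -0.01. It was called without R320* replicate 1 (limma adjusted p = 0.0333) and was -0.01 with equal RPKM column sums (limma adjusted p = 0.803). TUBB had 0.00203 normalized counts per RPKM, where TUBB6 had 48.2, TUBB4B 49.0 and the median of all genes with a mean of at least 10 RPKM was 54.7. Genes around TUBB on chromosome 6 (chr6:30720352-30725422) had the same gap. Of the genes with at least 10 RPKM, 26 of 35 (74.3%) within 1 Mb of TUBB had under 10 normalized counts, and 55 of 84 (65.5%) within 3 Mb. TUBB itself is included in these counts. Among the 7391 others, 98 (1.33%) did. FLOT1, which encodes flotillin, had 2.63 normalized counts and 97.1 RPKM, and NRM, which encodes nurim, had 0 and 47.8, whereas the DNA damage adaptor gene MDC1 had 248 and 60.9. The RPKM table therefore carries the TUBB result alone, and what made the tables differ was not tested.

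**Figure D3:**
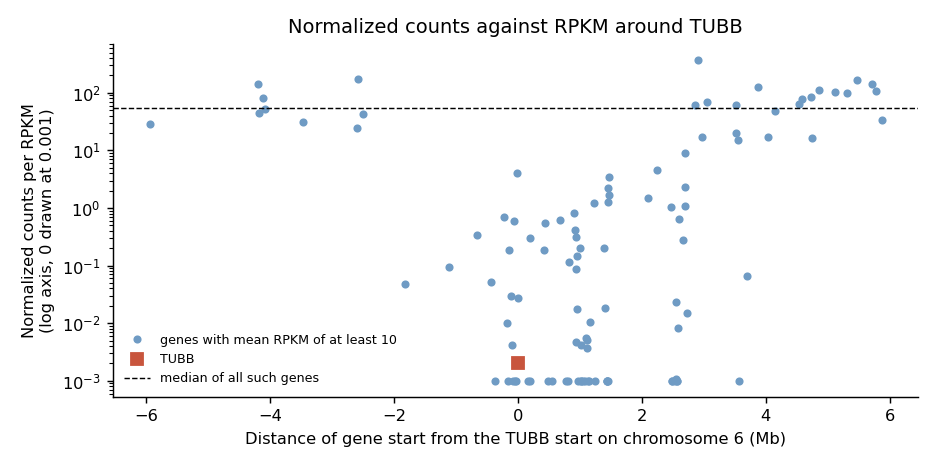
Normalized counts per RPKM (log axis, 0 drawn at 0.001) of genes with a mean of at least 10 RPKM against the distance of their start from TUBB, in Mb. TUBB, the square at 0.00203, and many of its neighbours lay far below the dashed median of 54.7.

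The alpha and beta totals did not move alike. The 4 alpha members summed to 2269, 2286 and 2243 RPKM in WT and 1646, 1562 and 1554 in R320*, a log2 ratio of the means of -0.51. The 6 beta members had a sum of 1465, 1439 and 1450 RPKM in WT and 1418, 1424 and 1379 in R320*, a log2 ratio of -0.04, which became 0.03 with equal RPKM column sums. All 3 R320* libraries were below all 3 WT libraries for both sums. The ratio of summed alpha to summed beta RPKM was 1.56 ± 0.0237 in WT and 1.13 ± 0.0322 in R320*. Leaving TUBB out, the beta sum went the other way, from 293 ± 5.70 to 317 ± 5.77. Each of these differences had a two-sided exact permutation p of 0.1, the smallest that 3 against 3 libraries allow.

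Within the pools the shares also differed. TUBA1B made up 71.3% ± 0.533 of the alpha RPKM in WT and 68.5% ± 0.984 in R320*, while TUBA1C went from 27.5% ± 0.487 to 30.2% ± 0.916. Those differences, -2.83 and 2.73 percentage points, were -1.10 and 0.806 in normalized counts, which are not divided by length. Shares within a pool depend on each other, so the differences of TUBA1B and TUBA1C are not separate results. TUBA1C gained share although its mean RPKM fell from 623 to 479. TUBB made up 79.8% ± 0.280 of the beta RPKM in WT and 77.4% ± 0.585 in R320*. TUBB6 went from 5.56% ± 0.322 to 8.70% ± 0.698, a gain of 3.13 percentage points that was 9.87 in normalized counts, where TUBB is nearly absent. The genotypes did not overlap for the shares of 9 of the members, each with a two-sided exact permutation p of 0.1 (0.111 after Benjamini-Hochberg adjustment over the 10 shares). For RPKM values themselves the genotypes did not overlap for 47.0% of all genes, and no such background was computed for shares. TUBB4B, at 12.8% ± 0.378 and 12.3% ± 0.149, overlapped (exact p = 0.2).

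**Figure D4:**
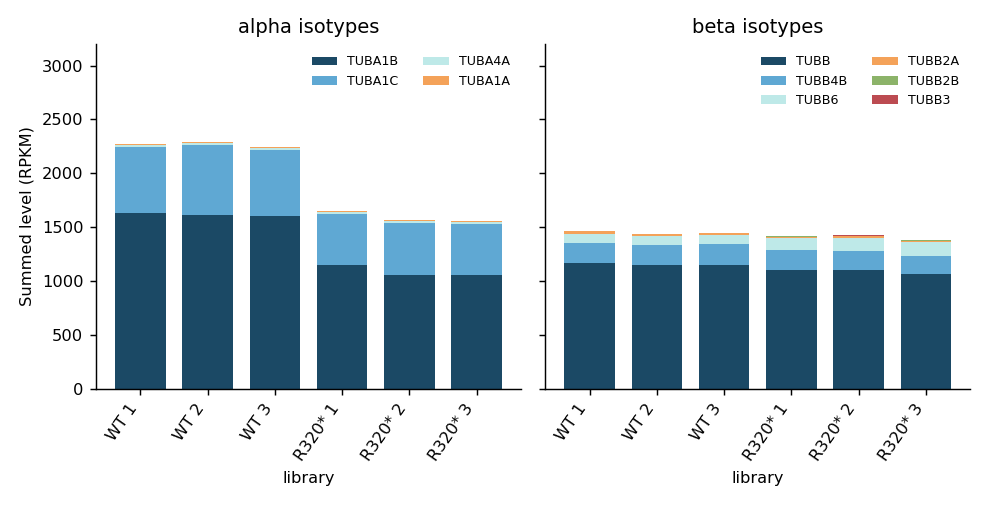
Summed RPKM of the 4 alpha and the 6 beta isotypes in each library, stacked by gene from the highest to the lowest in WT. The alpha bars reach 2243 to 2286 RPKM in WT and 1554 to 1646 in R320*, and the beta bars 1439 to 1465 and 1379 to 1424.

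The 3 alpha genes that fell lie close together on the long arm of chromosome 12, at chr12:49127782-49131395 (TUBA1B), chr12:49184795-49189080 (TUBA1A) and chr12:49227926-49274600 (TUBA1C), and other genes there were lower too. Within 1 Mb of TUBA1B, 36 other genes were tested, of which 23 were called lower and 3 higher. Their median log2 fold change was -0.53. The value of TUBA1B minus that median was -0.00, with 0.07 for TUBA1C (24 of 36 lower) and -0.18 for TUBA1A (24 of 37 lower, median -0.55). Along the whole chromosome, 440 of 568 tested genes that start above 38 Mb were called lower (77.5%) and 19 higher, with a median of -0.61. Below 38 Mb, 52 of 192 were lower (27.1%) and 36 higher, with a median of -0.04. The edge of 38 Mb was chosen after the values were seen. Over other windows and in the RPKM fit the neighbour medians of the 3 genes ranged from -0.57 to -0.52. What the genes of this stretch share was not tested.

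**Figure D5:**
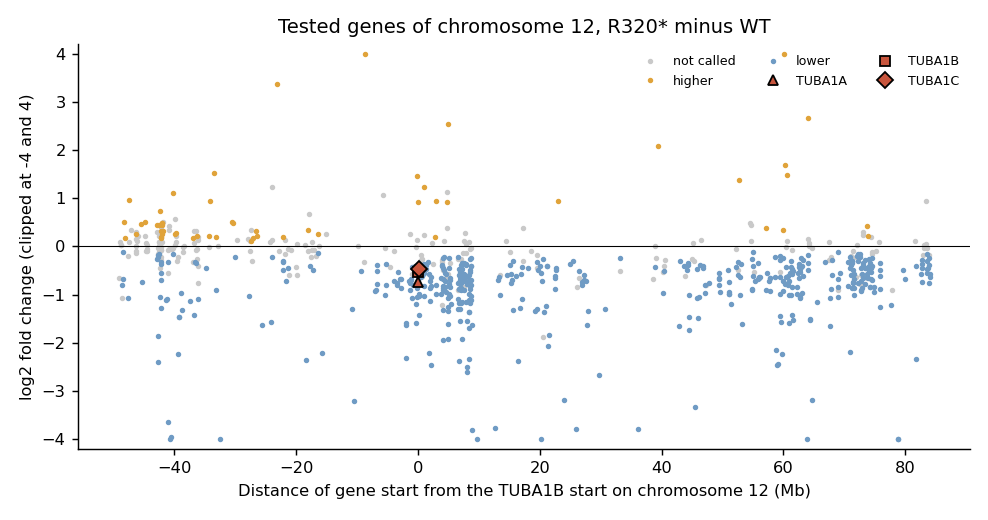
Log2 fold change in normalized counts of each tested gene of chromosome 12 against the distance of its start from TUBA1B, in Mb, with values beyond -4 or 4 drawn at the edge. The 3 tubulins sit at -0.73, -0.53 and -0.46, within a stretch of genes whose median was -0.61.

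The other members had neighbours that moved less, or otherwise. TUBB6 (chr18:12307669-12329826) had 12 tested neighbours within 1 Mb, of which 7 were called higher and 0 lower, with a median of 0.21. TUBB6 stood 0.42 above that median, and 10 of the 12 neighbours were below it. TUBB3 (chr16:89921925-89936097) stood 0.34 above a median of 0.22, in a stretch where 15 of 31 genes were higher and 5 lower. TUBB4B (chr9:137241287-137243707) lay 0.19 below the median of 0.17 over 69 genes, of which 27 were higher and 5 lower. Around TUBA4A (chr2:219249710-219254740) the median of 38 genes was 0.00, with 7 higher and 10 lower. Around TUBB2A (chr6:3153666-3157544) and TUBB2B (chr6:3224277-3227653) the same 20 genes had a median of -0.31, with 4 higher and 10 lower. Around TUBB only 12 genes passed the filter in normalized counts, with a median of 0.39, 1 higher and 2 lower. That median turned to -0.07 with the 10 nearest genes on each side, -0.31 within 500 kb and -0.18 in RPKM.

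Promoters are shown for the 3 alpha genes that fell together and for TUBB6, which rose. RefSeq windows of GRCh38.p14 hold 300 bases, 250 before and 50 after an annotated start, and the 10 members had 15 of them. Motifs were searched on both strands. The letters TGTGGT, or the variant TGCGGT, match the core motif of RUNX factors, and CCAAT is the box bound by NF-Y. The E-box was searched as CACGTG, the motif of GATA factors as AGATAA, and the TATA box as TATAAA. TUBA1A is shown at chr12:49189031-49189330 and TUBA1B at chr12:49131346-49131645, both on the minus strand. TUBA1C is shown at chr12:49264832-49265131, the last of its annotated starts, and TUBB6 at chr18:12307419-12307718, the first of its annotated starts, both on the plus strand. Capitals mark motif matches in either orientation.
TUBA1A: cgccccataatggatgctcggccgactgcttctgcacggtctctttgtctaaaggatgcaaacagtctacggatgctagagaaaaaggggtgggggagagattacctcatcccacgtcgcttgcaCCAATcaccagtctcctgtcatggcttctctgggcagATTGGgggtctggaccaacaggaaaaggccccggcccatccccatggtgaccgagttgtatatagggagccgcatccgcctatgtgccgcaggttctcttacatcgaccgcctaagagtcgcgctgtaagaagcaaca
TUBA1B: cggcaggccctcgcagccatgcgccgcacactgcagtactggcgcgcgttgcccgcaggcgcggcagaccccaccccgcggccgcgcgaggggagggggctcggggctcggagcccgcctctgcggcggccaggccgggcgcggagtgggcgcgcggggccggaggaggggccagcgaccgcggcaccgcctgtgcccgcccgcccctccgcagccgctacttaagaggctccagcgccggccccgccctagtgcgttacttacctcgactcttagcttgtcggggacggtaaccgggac
TUBA1C: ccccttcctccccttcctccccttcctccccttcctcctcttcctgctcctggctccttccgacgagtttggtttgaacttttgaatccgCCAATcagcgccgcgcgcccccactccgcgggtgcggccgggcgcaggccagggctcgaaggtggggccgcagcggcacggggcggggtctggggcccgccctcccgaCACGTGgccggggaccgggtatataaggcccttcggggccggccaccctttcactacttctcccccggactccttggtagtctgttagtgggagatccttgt
TUBB6: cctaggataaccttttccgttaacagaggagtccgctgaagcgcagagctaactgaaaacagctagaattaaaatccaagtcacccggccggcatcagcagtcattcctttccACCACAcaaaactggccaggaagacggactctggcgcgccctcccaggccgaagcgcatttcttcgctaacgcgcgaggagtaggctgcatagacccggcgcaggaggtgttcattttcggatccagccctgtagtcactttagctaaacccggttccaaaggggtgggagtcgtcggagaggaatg
CCAAT, as CCAAT or ATTGG, was in the shown windows of TUBA1A and TUBA1C, and that of TUBA1B had none of the motifs. TGTGGT was found in 1 member window, as ACCACA in TUBB6, and 13.1% of 35116 promoter windows hold it. CCAAT was in 9 of the 15 member windows (60%), against 34.6% of all windows. CACGTG was in 2 of the 15 (13.3%), in TUBA1C as shown and in TUBB, against 7.26%. TGCGGT and TATAAA were each in 1 window, of TUBB2A, against 7.29% and 11.5%, and AGATAA in 0, against 10.3%. The RUNX match of TUBB6 depends on the start chosen. Its other window, at chr18:12307991-12308290 and not shown, had no match to the RUNX motif and did have the NF-Y box. Windows of 1 gene can overlap, and all these motif counts are letter matches only.

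The other tubulin genes of the family were mostly at lower counts. Of 12, 10 were tested in normalized counts, 2 called higher and 4 lower (60%, against 53.7% of all genes). Their median change was -0.03 on the log2 scale. TUBB1, the beta tubulin of platelets, fell by 2.51 on the log2 scale. TUBA3C, a testis alpha tubulin, had 100.04 ± 18.8 normalized counts in WT and 27.4 ± 13.1 in R320* (-1.94, limma adjusted p = 0.00015). TUBAL3, an alpha tubulin-like gene, fell from 191 ± 16.8 to 115 ± 35.5 (-0.77, limma adjusted p = 0.00341). TUBG1, the gamma tubulin that nucleates microtubules, rose slightly from 2414 ± 197 to 2656 ± 59.3 (0.14, limma adjusted p = 0.0409), TUBA3D rose from 34.7 to 57.5 and TUBE1, the epsilon tubulin, fell from 1158 to 1015. TUBA8, TUBG2, TUBD1 and TUBB4A were not called, and TUBA3E and TUBB8 did not pass the filter. The genotypes overlapped for TUBG1. In RPKM 3 of 8 were called (37.5%, against 31.9%), all lower, and TUBG1 (0.03) and TUBE1 (-0.11) were not. TUBA3D did not pass the filter there, at 0.242 to 0.285 RPKM in WT and 0.319 to 1.13 in R320*. Sequence shared with other genes was not examined for these other tubulins.

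Genes that fold tubulin, the prefoldin and CCT chaperones and the TBC cofactors, were called in either direction. Of 19 tested, 8 were higher and 4 lower (63.2%, against 53.7% of all genes), with a median of 0.09. PFDN5, a prefoldin subunit on chromosome 12, fell by 0.86 on the log2 scale, from 4782 ± 125 to 2638 ± 282 (limma adjusted p = 3.55e-09). TBCB, which captures alpha tubulin, fell from 959 ± 31.6 to 660 ± 68.7 (-0.54), and PFDN1 from 2139 ± 107 to 1640 ± 95.3 (-0.38). In RPKM 13 of 20 folding genes were called (65%, against 31.9% of all genes), 8 higher and 5 lower. Of the 8 genes of tubulin RNA autoregulation, 1 was higher and 3 lower (50%, against 53.7% of all genes), with a median of -0.09. CNOT2, on chromosome 12, fell by 0.40 and CNOT11 by 0.28 on the log2 scale, and CNOT7 rose by 0.25. In RPKM 1 of 7 was called (14.3%, against 31.9%), and CNOT11 was not (limma adjusted p = 0.0521).

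Enzymes that modify tubulin, many of them on its tail, had 6 of 20 tested genes higher and 3 lower (45%, against 53.7% of all genes), with a median of 0.10. AGTPBP1, which trims glutamates from tubulin, rose by 1.03 on the log2 scale, from 836 ± 63.9 to 1710 ± 52.6 (limma adjusted p = 1.15e-09). AGBL2, a carboxypeptidase of the same family, and VASH1, which removes the terminal tyrosine of alpha tubulin, fell, AGBL2 from 113 to 52.7 (-1.09) and VASH1 from 144 to 77.4 (-0.90). In RPKM their falls were not called (limma adjusted p = 0.212 and 0.328). Nucleation genes had 7 of 21 higher and 5 lower (57.1%, against 53.7% of all genes), with a median of -0.02. NEDD1 on chromosome 12 fell from 1165 to 694 and TUBGCP4 rose from 575 to 819. MZT2B fell from 1164 ± 93.5 to 862 ± 305, but R320* replicate 1 lay within the WT range, and in RPKM it was not called (limma adjusted p = 0.174).

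Genes that bind, sever or regulate microtubules had 6 of 26 tested genes higher and 12 lower (69.2%, against 53.7% of all genes), with a median of -0.09. CLIP2, which binds growing microtubule ends, fell most in this list, from 704 ± 21.1 to 88.2 ± 16.8 normalized counts (limma adjusted p = 3.38e-11). MAP1B, a microtubule-stabilizing protein, fell from 3372 ± 232 to 579 ± 66.2 (-2.54, limma adjusted p = 1.2e-13), and MAP7, a kinesin recruiter, from 212 ± 9.98 to 72.4 ± 15.2 (-1.56). In RPKM 15 of 26 genes of this list were called (57.7%, against 31.9% of all genes), 4 higher and 11 lower. Of 20 mitosis and proliferation genes, 2 were called higher and 11 lower (65%, against 53.7% of all genes), with a median of -0.13. The spindle checkpoint kinase gene BUB1 rose from 8579 ± 156 to 13599 ± 93.9, CENPF from 10140 ± 355 to 12517 ± 679, and TOP2A fell from 17807 ± 433 to 12966 ± 518. In RPKM 6 of 19 were called (31.6%, against 31.9% of all genes), 2 higher and 4 lower.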

How the data were processed

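RNA was measured in 6 K562 libraries, 3 with wild-type RUNX1 and 3 with RUNX1 R320*. HISAT2, featureCounts, DESeq2 and Salmon with build hg38 are named, per the submitters' processing notes, with no version, setting or use of strand given there. The deposited signal values were read counts for 28395 Entrez genes, divided by 1 factor per library by the authors. All of them (100%) came out as whole reads within 1e-06. The deposited RPKM values covered 60131 Ensembl genes. RefSeq GRCh38.p14 gave symbols for 27745 Entrez identifiers, and the others held 0.0834% of reads.

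Normalized counts (plus 1) and RPKM (plus 0.1) were put on the log2 scale. Genes needed a minimum of 10 normalized counts or 0.5 RPKM in 3 or more libraries, which left 14299 and 17769 genes. Each table was fitted with limma 3.58.1 (R 4.3.3), with an intensity trend, two-sided, Benjamini-Hochberg adjustment and a threshold of 0.05. Shares and sums were compared with exact permutation tests. The tables share libraries and are no replication of each other. Methods were tested on simulated data.

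The members, the 7 context lists and the 6 marker lists were chosen with earlier results of these data known. The text names all members, the 3 called genes per context list with the largest change and a higher mean of 50 or more, the other tubulins that pass the filter, RUNX1, and genes next to TUBB. Coding sequences came from GENCODE 29 and were compared in windows of 50 and 100 bases. A planned comparison of protein tails was made on coding bases of the beta genes instead, and that of the alpha genes is not reported here. Alternatives were other pseudocounts, filters, scalings and windows, no intensity trend, a replicate block, leaving out single libraries, and edgeR 4.0.16 and DESeq2 1.42.0 on the recovered reads.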

Additional observations from a re-analysis of the deposited data

How the results depend on the processing

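TUBA1A, TUBA1B, TUBA1C and TUBB6 kept their direction and their call in all 15 alternatives to the normalized count fit and all 11 to the RPKM fit. Every alternative rested on the authors' assignment of reads to genes, so none of them tests that assignment. The number of genes called stayed within 1.5 times the main count in each alternative, with 7660 by edgeR's quasi-likelihood test and 7470 by DESeq2 on the recovered reads. TUBB2A was called in 5 of 15 alternatives to normalized counts, TUBB3 in 12, and TUBA4A and TUBB2B only in RPKM. TUBB4B ranged from -0.0357 to 0.0111 with 1 library left out, and it was above 0 without WT replicate 3 (0.00220) and without R320* replicate 1 (0.0111), neither called. The replicate number as a block gave 7854 genes called in normalized counts and 4865 in RPKM. Same-numbered libraries deviated with r of 0.0316, -0.00312 and -0.00325, and not every library correlated best with its own number. These values show no effect shared by same-numbered libraries, but they cannot tell whether such libraries were prepared together. The block made TUBB2A called in normalized counts and TUBB2B not called in RPKM.

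In normalized counts, which hold almost no TUBB and are not divided by length, shares differed between genotypes by -0.0793 points for TUBA1A, -1.10 for TUBA1B, 0.806 for TUBA1C, 0.375 for TUBA4A, 0.0242 for TUBB, -1.02 for TUBB2A, -0.272 for TUBB2B, 0.248 for TUBB3, -8.85 for TUBB4B and 9.87 for TUBB6. With all alpha and beta genes in the pools the TUBB share differed by -1.85. The log2 ratio of summed alpha was -0.44 with equal RPKM column sums, a scaling chosen after seeing the data, and that of summed beta was 0.0320 there and 0.19 in normalized counts, where the alpha to beta ratio differed by -2.09. With the 10 nearest genes on each side the neighbour median was -0.57 for TUBA1B and TUBA1C, -0.0704 for TUBB, -0.0780 for TUBB2B and 0.25 for TUBB3. Within 500 kb it was -0.57 for TUBA1C and -0.31 for TUBB. In the RPKM fit, also chosen after seeing the data, it was -0.18 for TUBB, 0.14 for TUBB3, 0.10 for TUBB4B and 0.11 for TUBB6. In RPKM 3 of 8 other tubulins, 1 of 7 autoregulation genes and 6 of 19 mitosis genes were called, against 31.9% of all genes. So were 5 of 19 modifying enzymes (26.3%) and 6 of 21 nucleation genes (28.6%). Among folding genes 13 of 20 (65%) were called, and among genes that bind, sever or regulate microtubules 15 of 26 (57.7%). The causes were not tested. At 3 libraries per genotype no exact permutation test can pass 0.05, and levels near 100 normalized counts, as for TUBB2B and TUBB3, limit what can be seen.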
